A study of Homo sapiens with 20 samples.

Results

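The 10 genes described here belong to the BCL2 family of apoptosis regulators. They were chosen by name as 3 survival members (MCL1, BCL2 and BCL2L1, which encodes BCL-xL), 2 effector members (BAX and BAK1) and 5 BH3-only members (BCL2L11, which encodes BIM, PMAIP1, which encodes NOXA, BBC3, which encodes PUMA, BID and BIK). All 10 were found among the 19617 genes of the series. Each gene was represented by the GENCODE transcript with the most reads over all libraries.

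BCL2 family proteins decide at the outer mitochondrial membrane whether a cell enters apoptosis. BAX and BAK1 form pores in that membrane and release cytochrome c, the survival proteins hold them and the BH3-only proteins in check, and BH3-only proteins relay stress signals by binding the survival proteins or the effectors. MCL1 is short-lived as an mRNA and as a protein, and myeloma and plasma cells are known for their dependence on it.

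The cells were MM1.S, an established multiple myeloma line labelled wild type. They received 10 nM dCBP-30, a small molecule that triggers degradation of the histone acetyltransferases CBP and p300, or the vehicle DMSO, for 2, 6 or 24 h, with 3 libraries per treatment and time point and DMSO libraries of their own at each time. The 18 libraries were labelled with 4-thiouridine (4sU) for the last 1 h before harvest, and 2 further libraries had none. Alkylated 4sU is sequenced as C where the genome has T. A 3′-end read that carries such a change is called a T>C read here. Such reads mark transcripts made within the labelling hour, above a background that the libraries without 4sU measure. Because the labels do not say whether replicates came from separate cultures, every p-value below measures only the spread between these libraries.

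Each gene is described by its T>C reads, its total reads and its labelled share. The T>C reads and the total reads (all reads of the gene) are in RPM, reads per 1000000 of the library's total reads scaled by a TMM factor, and the labelled share is the percentage of the gene's reads that are T>C reads. A gene was called lower or higher when edgeR's quasi-likelihood test gave an adjusted p under 0.05 over all genes tested and the difference was beyond 2-fold. Errors of log2 differences are standard errors worked out from the difference and the F value of its test. Errors of means are SD over 3 libraries.

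Between 12440707 and 18729077 reads per library fell on genes. T>C reads made up 4.71% to 8.62% of them with 4sU and 0.794% and 0.809% without. The libraries under dCBP-30 at 24 h stood apart in 1 respect, with 1.43 to 1.51 conversions counted per T>C read against 2.46 to 2.51 under DMSO at 24 h. The range was 2.12 to 2.27 over the libraries of the earlier times. Markers can show a plasma cell type here but cannot identify the line. All 9 plasma cell markers tested had reads in every library, and their summed level under DMSO was 5829 to 7548 RPM. That sum was 4669 to 5172, 2006 to 2130 and 619 to 807 RPM under dCBP-30 at 2, 6 and 24 h. The 13 markers of B, T, myeloid, epithelial and stromal cells summed to at most 19.4 RPM in any labelled library. At 24 h they summed to 11.9 to 19.4 RPM under dCBP-30 and 4.65 to 9.13 RPM under DMSO. CD3D, LYZ and EPCAM were among those at 0 in every DMSO library, while the T cell marker CD3E had 2.08 to 7.19 RPM there. CD3E averaged 12.9 RPM under dCBP-30 at 24 h against 5.27 RPM under DMSO. The bulk libraries cannot tell fewer cells from less RNA per cell.

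Family members differed widely in labelled share under DMSO. Pooled over the 9 DMSO libraries the share was 44.3% for PMAIP1, 35.7% for BBC3, 34.4% for BCL2L11 and 31.8% for MCL1, all at or above the 89.5th percentile of 10086 genes tested, whose median was 11.1%. BCL2 stood at 18.9%, BAK1 at 11.1%, BCL2L1 at 10.4%, BID at 6.14% and BAX at 2.45%, the last at the 4.6th percentile. The DMSO shares differed between times, and neighbours in this order changed places. The mean for MCL1 was 26.5%, 28.0% and 40.3% at 2, 6 and 24 h, and for BCL2 13.3%, 17.1% and 25.8%. The mean over whole DMSO libraries also rose, at 6.08%, 6.38% and 8.31%. At 2 h BCL2L11 (31.1% ± 5.97) stood above BBC3 (29.0% ± 2.26), and at 6 h BCL2L1 (10.1% ± 0.557) stood above BAK1 (9.02% ± 2.19), each by less than the larger SD. A share depends on how many T positions a read covers as well as on turnover. The same genes without 4sU gave 0 T>C reads among 616 for BAX and 170 for PMAIP1, which allows shares of up to 0.487% and 1.76% at 3 reads (exact 95% upper limits of 0.597% and 2.15%). For the other members tested the share without 4sU ran from 0.266% (BCL2, exact 95% interval 0.115% to 0.524%) to 1.46% (BCL2L11, 1.03% to 2.02%). These intervals and limits cover counting error only, as PCR copies cannot be told apart.

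The 3′ UTRs in which the reads were counted differ in AU-rich elements, sequences built on the pentamer ATTTA that are known as binding sites for proteins controlling mRNA decay. The most crowded 30-base stretches of the genes whose T>C reads are described most closely below were as follows, read 5′ to 3′ from GENCODE release 44 (GRCh38), with each ATTTA in capitals.
MCL1: tctgtcttgATTTATTTATTTAttattttt
BCL2: gaaaaaaagATTTATTTATTTAagacagtc
BCL2L1: ctagttttctagaATTTAtcacacttctgt
BCL2L11: tgtatATTTAttttctgcttATTTAatgtc
PMAIP1: aattttATTTAttttgcctATTTAtaatta
BID: aatgaaaatgtccATTTAcacgtatttgaa

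These stretches lie at chr1:150574259-150574288 (minus strand), chr18:63128353-63128382 (minus), chr20:31665768-31665797 (minus), chr2:111167091-111167120 (plus), chr18:59903967-59903996 (plus) and chr22:17735356-17735385 (minus), in the same order. The MCL1 and BCL2 stretches each held 3 overlapping pentamers. Over the whole 3′ UTR, stop codon included, MCL1 had 13 copies of ATTTA in 3202 bases, where UTRs of like length (within a factor of 0.8 to 1.25) had a median of 6. PMAIP1 had 5 in 1555 bases against a median of 2. BCL2, with 13 in 5936 bases, and BCL2L11, with 8 in 4216 bases, equalled the medians of their lengths, BCL2L1 had 3 in 1500 bases and BID had 2 in 1445. No copy was found in the UTRs of BAX (704 bases), BAK1 (1453 bases) or BBC3 (981 bases), while 61.7%, 80.2% and 72.4% of UTRs of those lengths held at least 1. Of all 10086 UTRs tested, 76.8% held ATTTA and 36.9% the longer TATTTAT, which overlaps it. MCL1 had 5 copies of TATTTAT, PMAIP1 3, BCL2L11 2, and BCL2 and BCL2L1 1 each. The search covered the transcript's own strand only, and a match describes the letters and not a working site.

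Of the 10 genes, 9 had enough reads to be tested in both T>C and total reads. BIK, a BH3-only protein of the endoplasmic reticulum, was not: it had 58 reads over all 20 libraries, of which 4 were T>C reads.

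T>C reads fell beyond 2-fold for 4 of the 9 members at 2 h (MCL1, BCL2L1, BAK1 and BBC3), where 7.14% of all genes tested were called lower. They fell for 5 at 6 h (MCL1, BCL2, BCL2L1, BCL2L11 and BID), against 17.1% of all genes, and for 4 at 24 h (BCL2, BCL2L1, BAK1 and BID), against 31.2%. No member was higher at 2 or 6 h, where 1.66% and 2.36% of genes were, and at 24 h BBC3 alone was, against 2.17%. By role, 2, 3 and 2 of the 3 survival members were called lower at 2, 6 and 24 h, 1, 0 and 1 of the 2 effectors, and 1, 2 and 1 of the 4 BH3-only members tested. The survival members had median log2 differences of -1.42, -2.76 and -2.39, beside medians over all genes of 0.05, -0.27 and -0.69. For the BH3-only members the medians were -0.47, -1.04 and -0.86.

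In total reads no member was called at 2 h, when 1.25% of genes were lower and 0.464% higher. At 6 h the 3 survival members were lower (8.67% of all genes) and PMAIP1 was higher (7.47%). At 24 h BCL2 and BCL2L1 were lower (16.1%) and BBC3 was higher (15%). The median log2 difference over all genes was -0.0008, 0.02 and 0.05 at the 3 times. These splits rest on the TMM factors, without which 1061 genes were lower and 3689 higher in total reads at 24 h, in place of 1972 and 1841, and the median moved to 0.58. In T>C reads at 24 h the split went from 3148 lower and 219 higher to 1763 and 602 without TMM factors, and to 1517 and 759 when libraries were scaled by their own T>C reads. At 6 h it went from 1064 and 917 to 731 and 1765 in total reads, and from 1720 and 238 to 1174 and 525 (without TMM factors) or 1184 and 518 (own T>C reads) in T>C reads. At 2 h it went from 153 and 57 to 127 and 92 in total reads and from 720 and 167 to 617 and 243 in T>C reads.

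The labelled share was tested as the ratio of T>C reads to the gene's other reads. It was lower for BCL2L1 at 2 h (4.44% of all genes), for BCL2L11 and BBC3 at 6 h (4.19%), and for MCL1, BCL2, BAK1 and BCL2L11 at 24 h (19.1%). It was higher for no member, and for 0.644%, 0.198% and 0.0892% of all genes. The median over all genes was 0.02, -0.34 and -0.79 at 2, 6 and 24 h.

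**Figure D1:**
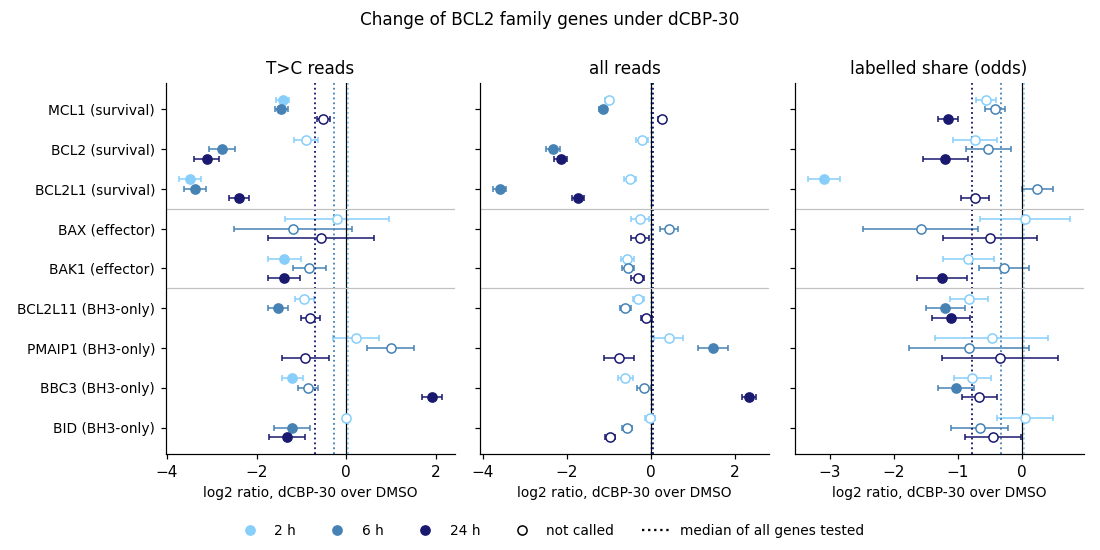
Log2 ratio of dCBP-30 over DMSO for T>C reads, total reads and the labelled share of 9 family members at 2, 6 and 24 h, with standard errors (none is drawn where the ratio is within 0.01 of 0). Filled points were called (adjusted p under 0.05 and beyond 2-fold) and dotted lines are the medians of all genes tested; at 6 and 24 h BCL2L1 and BCL2 lie farthest to the left in T>C and total reads, and BBC3 at 24 h is the only filled T>C point to the right of 0.

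MCL1, the survival protein that binds NOXA and BIM among others, had fewer T>C reads at 2 and 6 h and approached DMSO at 24 h. Its T>C reads at 2 h were 40.9, 39.3 and 36.9 RPM in the 3 dCBP-30 libraries and 108, 104 and 101 RPM under DMSO. The 6 h libraries had 43.7, 48.9 and 41.2 against 128, 115 and 121 RPM. The groups did not overlap at either time, and the log2 differences were -1.42 ± 0.15 (adjusted p = 1.3e-11) and -1.44 ± 0.15 (adjusted p = 3.1e-12). At 24 h the dCBP-30 libraries were at 114, 84.0 and 136 RPM against 160, 164 and 152 RPM. They still lay below every DMSO library, with a log2 difference of -0.51 ± 0.14 (adjusted p = 0.0028), within 2-fold. That sign depends on the scale: it was 0.12 (adjusted p = 0.53) with libraries scaled by their T>C reads and 0.01 (adjusted p = 0.98) without TMM factors.

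Total MCL1 reads went from below to above DMSO over the same time. They were 190, 206 and 201 RPM under dCBP-30 at 2 h against 408, 381 and 392 RPM, a log2 difference of -0.98 ± 0.10 (adjusted p = 7.5e-08). After 6 h they were 196, 205 and 192 RPM against 469, 403 and 429 RPM (-1.13 ± 0.10, adjusted p = 6.2e-10). At 24 h they were 487, 430 and 505 RPM against 398, 413 and 374 RPM (0.26 ± 0.10, adjusted p = 0.02), again without overlap and within 2-fold. Leaving out the dCBP-30 or the DMSO replicate 2 brought the 2 h difference past 2-fold, to -1.01 in either case, and without TMM factors the 6 h difference was -0.82. The labelled share was 19.7% ± 1.69 against 26.5% ± 0.767 at 2 h, 22.5% ± 1.19 against 28.0% ± 0.593 at 6 h, and 23.3% ± 3.69 against 40.3% ± 0.466 at 24 h, where it was called lower (log2 ratio -1.16 ± 0.16, adjusted p = 1.1e-05). MCL1 T>C reads at 24 h held 1.51 to 1.63 conversions each under dCBP-30 and 2.65 to 3.02 under DMSO, and the part of this in the 24 h values was not tested. Counted as conversions per 1000000 reads, MCL1 under dCBP-30 was at 0.397, 0.403 and 0.396 of the DMSO mean at 2, 6 and 24 h.

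BCL2, the founding survival member, changed later and stayed down. Its T>C reads at 2 h were 5.95, 7.92 and 7.07 RPM against 7.77, 15.7 and 15.8 RPM. The groups overlapped through DMSO replicate 1, and the difference of -0.91 ± 0.27 (adjusted p = 0.015) was within 2-fold. Without that DMSO library it was -1.17 (adjusted p = 0.0015), and without dCBP-30 replicate 2 it was -1.01 (adjusted p = 0.022), both past the 2-fold line, as was -1.02 (adjusted p = 0.041) with reads summed over transcripts. At 6 h the libraries gave 1.32, 3.22 and 2.45 RPM against 13.3, 17.6 and 16.9 RPM, and at 24 h 2.13, 2.75 and 3.59 against 23.0, 24.1 and 26.6 RPM. Neither time had any overlap, with log2 differences of -2.76 ± 0.29 (adjusted p = 6.2e-12) and -3.12 ± 0.28 (adjusted p = 4.8e-14).

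Total BCL2 reads barely moved at 2 h, at 85.1 ± 6.77 RPM against 98.1 ± 3.64 RPM (-0.20 ± 0.15, adjusted p = 0.54). They then fell to 13.7, 17.7 and 24.2 RPM at 6 h against 80.3, 99.4 and 99.8 RPM (-2.33 ± 0.16, adjusted p = 9.7e-12). At 24 h they were 24.9, 18.2 and 21.7 RPM against 98.7, 98.1 and 90.3 RPM (-2.15 ± 0.16, adjusted p = 1.9e-11). Every dCBP-30 library was below every DMSO library at the 3 times. The labelled share was called lower at 24 h alone, 13.4% ± 4.25 against 25.8% ± 3.27 (log2 ratio -1.20 ± 0.35, adjusted p = 0.014). Without dCBP-30 replicate 1 this ratio was -0.88 (adjusted p = 0.087), and without DMSO replicate 3 it was -1.06 (adjusted p = 0.059). The transcript with most BCL2 reads is annotated as a target of nonsense-mediated decay and shares the terminal part of its 3′ UTR with the coding transcripts, so its reads do not separate them.

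BCL2L1 showed the largest 2 h decrease of the 9 genes tested in T>C reads. At 2 h its libraries held 2.93, 2.18 and 1.63 RPM of T>C reads under dCBP-30 against 20.6, 25.7 and 28.0 RPM under DMSO (-3.48 ± 0.25, adjusted p = 1.3e-17). At 6 h they held 2.39, 4.11 and 2.82 against 33.9, 32.6 and 30.3 RPM (-3.37 ± 0.24, adjusted p = 3.6e-18). At 24 h the values were 6.13, 5.38 and 8.74 against 36.5, 30.1 and 40.0 RPM (-2.39 ± 0.22, adjusted p = 1.2e-13). The treatments did not overlap at any time.

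Total BCL2L1 reads were within 2-fold of DMSO at 2 h and far below it at 6 h. Total reads at 2 h were 193, 226 and 175 RPM against 258, 280 and 301 RPM (-0.50 ± 0.14, adjusted p = 0.037). After 6 h they were 22.0, 28.6 and 28.7 RPM against 357, 310 and 292 RPM (-3.60 ± 0.15, adjusted p = 1.3e-15), which was 0.0826 of the DMSO mean. By 24 h they were 104, 71.2 and 89.2 RPM against 336, 263 and 282 RPM (-1.74 ± 0.14, adjusted p = 1.3e-10). The labelled share at 2 h was 1.14% ± 0.331 against 8.81% ± 0.724 (log2 ratio -3.10 ± 0.25, adjusted p = 3e-09). Without 4sU the share of BCL2L1 was 0.447% (exact 95% interval 0.324% to 0.601%), a background that was not subtracted and is a sizeable part of the dCBP-30 value. At 6 h, with both kinds of reads down, the shares were 11.7% ± 2.36 and 10.1% ± 0.557 and overlapped (0.23 ± 0.24, adjusted p = 0.66). At 24 h the share was 7.75% ± 1.96 against 12.2% ± 1.76, without overlap and within 2-fold (-0.74 ± 0.23, adjusted p = 0.02). Without dCBP-30 replicate 1 or DMSO replicate 3 it was -0.54 and -0.61 (adjusted p = 0.11 and 0.092). Transcripts for BCL-xL and its short form BCL-xS share this UTR and cannot be told apart by these reads.

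**Figure D2:**
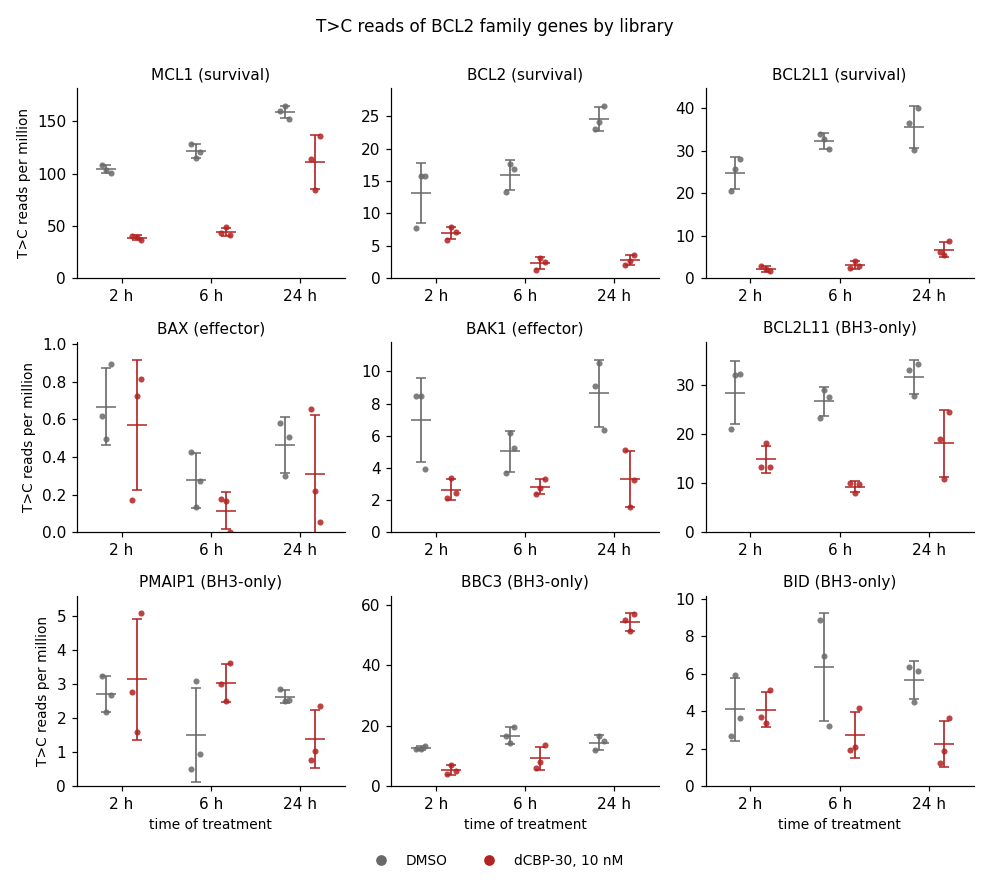
T>C reads in RPM by library for 9 family members at 2, 6 and 24 h under DMSO (grey) and 10 nM dCBP-30 (red). Points are libraries, and the horizontal mark and bars are the mean and SD of 3; the red points of MCL1 and BCL2L1 lie below all grey points of their time, and those of BBC3 cross to above them at 24 h, at 51.3 to 56.9 against 11.8 to 16.6 RPM.

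Of the effectors, BAX gave little to measure. It had 0 to 13 T>C reads per labelled library, and its T>C log2 differences of -0.21, -1.19 and -0.56 had standard errors above 1 (adjusted p of 0.58 or more). Differences of this size were not detectable at this depth. Its total reads overlapped between treatments at every time: 14.6 ± 2.02 against 17.5 ± 1.46 RPM at 2 h, 20.8 ± 5.77 against 15.5 ± 2.42 RPM at 6 h, and 19.5 ± 4.71 against 23.1 ± 3.85 RPM at 24 h. The log2 differences were -0.26 ± 0.22, 0.42 ± 0.21 and -0.25 ± 0.21 (adjusted p = 0.6, 0.12 and 0.32).

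BAK1, the effector resident on mitochondria, had fewer T>C reads under dCBP-30 at each time. They were 2.16, 3.37 and 2.44 RPM against 8.47, 8.46 and 3.96 RPM at 2 h (-1.38 ± 0.37, adjusted p = 0.0066). At 6 h they were 2.39, 2.77 and 3.31 against 3.68, 6.17 and 5.22 RPM (-0.83 ± 0.37, adjusted p = 0.095), and at 24 h 5.09, 1.59 and 3.27 against 9.07, 10.5 and 6.38 RPM (-1.38 ± 0.36, adjusted p = 0.0013). No time had overlapping groups, although the 6 h difference missed the threshold. The 2 h call was lost without DMSO replicate 2 (-1.22, adjusted p = 0.051), and the 24 h call was lost with libraries scaled by T>C reads (-0.75, adjusted p = 0.11) or without TMM factors (-0.86, adjusted p = 0.062). Total BAK1 reads differed by less, at -0.56 ± 0.15, -0.54 ± 0.15 and -0.31 ± 0.15 (adjusted p = 0.028, 0.0049 and 0.067), and the last turned to 0.21 without TMM factors. The labelled share at 24 h was 6.40% ± 3.12 against 13.4% ± 2.59 (log2 ratio -1.25 ± 0.39, adjusted p = 0.023). That call was lost without dCBP-30 replicate 2 (-0.81, adjusted p = 0.14), DMSO replicate 1 (-1.19, adjusted p = 0.069) or DMSO replicate 2 (-1.12, adjusted p = 0.081). For every 100 reads counted on BAK1 the tables list 29.7 as multimapping, against at most 0.422 for the other members. The authors' methods say that multimapping reads were removed, yet in the tables this count equals the read count in 31401 of the 421471 transcript entries where it is above 0 and exceeds it in 0, as a count of reads kept within the total would. The BAK1 values therefore may include reads that also map elsewhere and are less certain.

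Among the BH3-only members, BCL2L11 lost T>C reads at every time. At 2 h they were 13.2, 18.1 and 13.3 RPM against 21.0, 32.0 and 32.3 RPM (-0.93 ± 0.21, adjusted p = 0.0011), at 6 h 9.94, 7.93 and 9.87 against 23.4, 29.0 and 27.6 RPM (-1.53 ± 0.22, adjusted p = 6.5e-08), and at 24 h 19.1, 10.9 and 24.4 against 33.0, 27.7 and 34.3 RPM (-0.80 ± 0.21, adjusted p = 0.0015). The groups stayed apart at all 3 times, and the 6 h difference alone exceeded 2-fold. Without dCBP-30 replicate 2 or DMSO replicate 1 the 2 h difference passed that line too (-1.10 and -1.11), as the 24 h difference did without dCBP-30 replicate 3 (-1.08). BIM, its product, binds all survival members and can activate the effectors.

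Total BCL2L11 reads differed by less than its T>C reads. They were 74.5 ± 14.4 against 91.4 ± 12.01 RPM at 2 h (-0.29 ± 0.13, adjusted p = 0.25), 56.1 ± 4.10 against 85.5 ± 2.85 RPM at 6 h (-0.61 ± 0.13, adjusted p = 0.00064) and 70.8 ± 5.52 against 76.4 ± 5.80 RPM at 24 h (-0.11 ± 0.13, adjusted p = 0.48). The 24 h difference became 0.41 (adjusted p = 0.01) without TMM factors. The labelled share was 16.5% ± 1.51 against 31.1% ± 2.88 at 6 h (log2 ratio -1.20 ± 0.30, adjusted p = 0.013) and 25.2% ± 7.76 against 41.5% ± 4.21 at 24 h (-1.10 ± 0.30, adjusted p = 0.0091). The 6 h call was lost without dCBP-30 replicate 2 (-1.12, adjusted p = 0.056) or DMSO replicate 3 (-1.14, adjusted p = 0.053). The 24 h ratio came within 2-fold without dCBP-30 replicate 2 (-0.77, adjusted p = 0.069) or DMSO replicate 3 (-0.96, adjusted p = 0.046), and with reads summed over transcripts (-0.90, adjusted p = 0.043). The 3′ UTR of BCL2L11 overlaps an exon of the long non-coding RNA MIR4435-2HG on the opposite strand, and how strand was used in the counting is not given in the sources used here.

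PMAIP1, a BH3-only gene whose product NOXA binds MCL1 in particular, went the other way at 6 h in total reads. These were 12.1, 8.10 and 7.91 RPM under dCBP-30 against 3.47, 5.23 and 1.29 RPM under DMSO (1.49 ± 0.36, adjusted p = 0.0016), and the groups did not overlap. At 2 h they were 6.81, 6.60 and 10.8 RPM against 5.93, 6.21 and 5.98 RPM (0.42 ± 0.35, adjusted p = 0.6), and at 24 h 4.16, 2.64 and 3.92 against 5.64, 6.92 and 5.51 RPM (-0.75 ± 0.35, adjusted p = 0.068). The DMSO mean in total reads was 6.04, 3.33 and 6.02 RPM at 2, 6 and 24 h, so the 6 h difference includes a low DMSO value. Under dCBP-30 the mean was 8.08, 9.37 and 3.57 RPM. PMAIP1 was thinly covered, with 7 to 81 T>C reads and 19 to 202 reads in a labelled library. Its T>C reads at 6 h were 2.99, 2.50 and 3.62 RPM against 0.495, 3.08 and 0.949 RPM, and overlapped through DMSO replicate 2. The differences in T>C reads were 0.22 ± 0.51, 1.00 ± 0.52 and -0.92 ± 0.52 (adjusted p = 0.88, 0.17 and 0.17). Without DMSO replicate 2 the 6 h difference was 2.05 (adjusted p = 0.011), and without dCBP-30 replicate 3 the 24 h difference was -1.53 (adjusted p = 0.04).

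BBC3 reversed between 6 and 24 h. At 2 h its T>C reads were 4.05, 7.13 and 5.07 RPM against 12.2, 12.2 and 13.3 RPM (-1.20 ± 0.23, adjusted p = 8.1e-05), and at 6 h 6.11, 8.15 and 13.5 against 16.6, 14.1 and 19.5 RPM (-0.86 ± 0.22, adjusted p = 0.0022). Every dCBP-30 library lay below its DMSO libraries at these times, and without dCBP-30 replicate 3 the 6 h difference was -1.23 (adjusted p = 3.2e-05). At 24 h the order was turned, with 54.8, 51.2 and 56.9 RPM under dCBP-30 against 11.8, 16.6 and 14.9 RPM under DMSO (1.91 ± 0.22, adjusted p = 1.1e-10). BBC3 encodes PUMA, best known as a target of p53 that binds every survival member.

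Total BBC3 reads rose even more at 24 h, to 176, 174 and 178 RPM against 33.6, 33.6 and 37.3 RPM, which is 5.06 times the DMSO mean (2.34 ± 0.17, adjusted p = 1.6e-11). The counts behind this were 3171 to 3326 reads per library against 515 to 563. Before that they were 23.3, 39.5 and 22.8 RPM against 42.9, 45.0 and 42.2 RPM at 2 h (-0.60 ± 0.17, adjusted p = 0.04) and 40.7 ± 8.71 against 45.7 ± 4.38 RPM at 6 h (-0.17 ± 0.17, adjusted p = 0.44). The labelled share of BBC3 had a lower mean at every time, at 19.2% ± 2.63 against 29.0% ± 2.26, 22.1% ± 4.37 against 36.6% ± 4.24 and 30.8% ± 1.26 against 41.5% ± 7.31. Of these the 6 h ratio alone was called (-1.03 ± 0.28, adjusted p = 0.024). It lost the call without dCBP-30 replicate 1 (-0.87, adjusted p = 0.1), dCBP-30 replicate 2 (-0.99, adjusted p = 0.077) or DMSO replicate 3 (-0.88, adjusted p = 0.12), and when 6 h was fitted alone (-1.03, adjusted p = 0.12). BBC3 T>C reads at 24 h held 1.54 to 1.61 conversions each against 2.50 to 3.21 under DMSO. In conversions per 1000000 reads BBC3 was 2.08 times the DMSO mean, where in T>C reads it was 3.76 times.

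**Figure D3:**
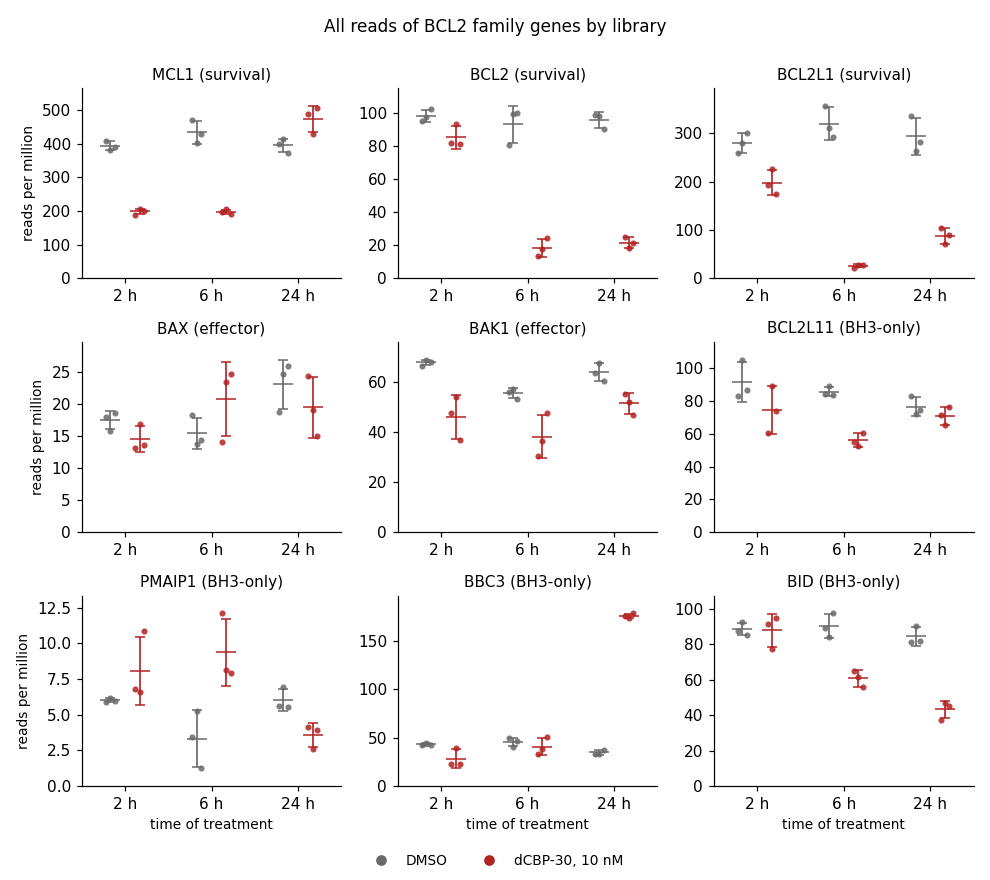
Total reads in RPM by library for the same 9 genes, times and treatments, with mean and SD of 3 libraries. BCL2 and BCL2L1 drop between 2 and 6 h, MCL1 passes above DMSO at 24 h, and BBC3 reaches 174 to 178 RPM at 24 h against 33.6 to 37.3 RPM.

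BID, which joins the death receptor pathway to mitochondria once caspase-8 cleaves it, declined late. Its T>C reads at 2 h were 4.07 ± 0.936 against 4.09 ± 1.66 RPM (-0.01, adjusted p = 0.99). At 6 h they were 1.92, 2.11 and 4.17 against 8.85, 6.97 and 3.19 RPM (-1.21 ± 0.40, adjusted p = 0.019), and the groups overlapped. At 24 h they were 1.26, 1.87 and 3.65 against 6.35, 4.47 and 6.16 RPM (-1.32 ± 0.40, adjusted p = 0.0065), without overlap. The 6 h call was lost without dCBP-30 replicate 1 or 2 or DMSO replicate 1 or 2 (-1.02, -1.06, -0.90 and -1.14, adjusted p = 0.1, 0.091, 0.16 and 0.061). It was also lost under both other scalings (-0.91 and -0.90, adjusted p = 0.093 and 0.11) and with reads summed over transcripts (-1.19, adjusted p = 0.067). The 24 h call was lost without dCBP-30 replicate 1 (-1.03, adjusted p = 0.059) and under both other scalings (-0.69 and -0.80, adjusted p = 0.19 and 0.13).

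Total BID reads were steadier from library to library. They were 87.9 ± 9.23 against 88.6 ± 3.62 RPM at 2 h (-0.01 ± 0.12, adjusted p = 0.98). After 6 h they were 65.2, 61.4 and 55.7 against 89.0, 83.9 and 97.4 RPM (-0.57 ± 0.12, adjusted p = 0.00042), and at 24 h 37.5, 47.0 and 45.3 against 81.0, 90.6 and 81.6 RPM (-0.96 ± 0.12, adjusted p = 1.7e-07). The later groups did not overlap, both differences were within 2-fold, and the 24 h difference passed it without dCBP-30 replicate 2 (-1.03).

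**Figure D4:**
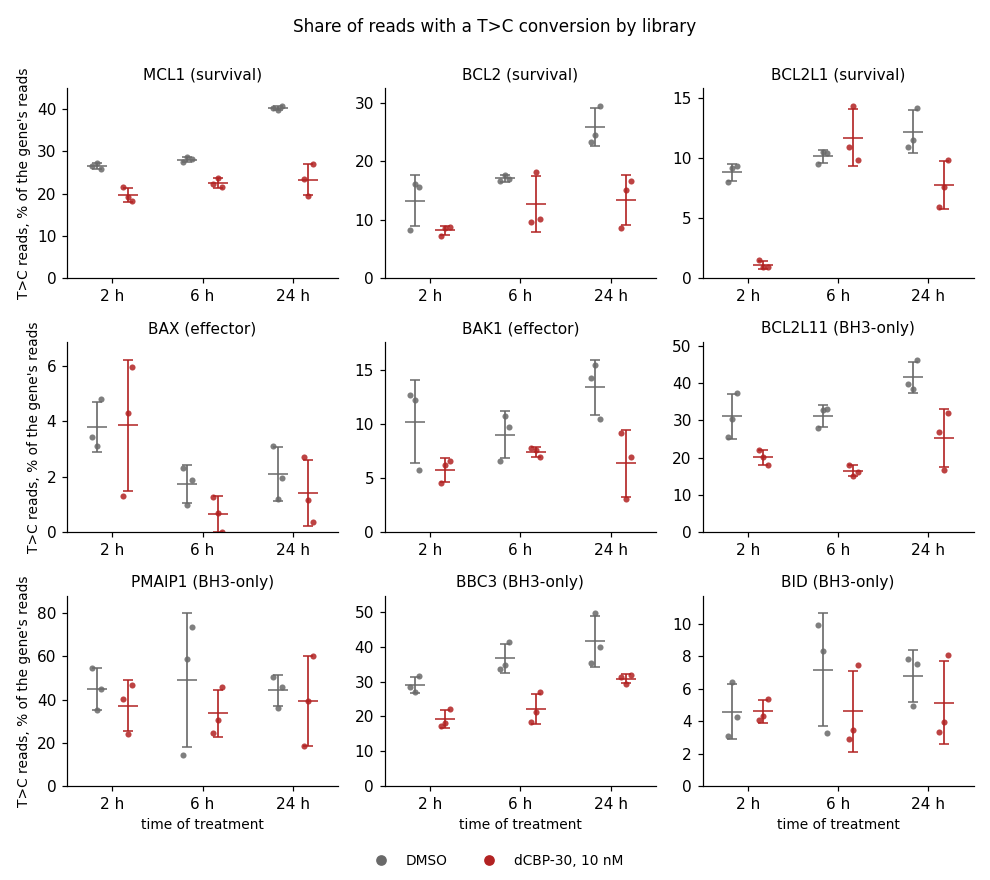
Labelled share (T>C reads as a percentage of the gene's reads) by library for the 9 genes, with mean and SD of 3 libraries. BCL2L1 at 2 h under dCBP-30 stands at 0.929% to 1.52% against 7.98% to 9.30%, and is back among the DMSO values at 6 h.

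Interaction terms asked whether the dCBP-30 effect at 6 or 24 h differed from that at 2 h, with an adjusted p under 0.05 as the threshold. Both share the 2 h libraries. In T>C reads 1 member differed between 6 and 2 h (8.03% of all genes): BCL2, by -1.86 ± 0.39 (adjusted p = 0.00054). Between 24 and 2 h 4 differed (26% of all genes): BCL2 lower by a further -2.21 ± 0.38 (adjusted p = 7e-06), and MCL1, BCL2L1 and BBC3 in the opposite direction by 0.91 ± 0.20, 1.09 ± 0.33 and 3.11 ± 0.32 (adjusted p = 0.00047, 0.0094 and 1.3e-11). The BCL2L1 difference was 0.88 (adjusted p = 0.061) without dCBP-30 replicate 3 of 2 h and 0.86 (adjusted p = 0.051) without replicate 3 of 24 h. That of BID, -1.31 ± 0.57 (adjusted p = 0.081), passed the threshold without DMSO replicate 2 of 2 h (-1.68, adjusted p = 0.037) or dCBP-30 replicate 3 of 24 h (-1.84, adjusted p = 0.016).

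In total reads 3 members differed between 6 and 2 h (15.7% of all genes): BCL2 by -2.13 ± 0.22, BCL2L1 by -3.10 ± 0.20 and BID by -0.56 ± 0.17 (adjusted p = 5.6e-08, 2e-11 and 0.022). The BID difference missed the threshold without dCBP-30 replicate 1 or 3 of 2 h or DMSO replicate 3 of 6 h (adjusted p = 0.055, 0.065 and 0.067) and without TMM factors (-0.34, adjusted p = 0.15). Between 24 and 2 h 5 differed (41.1% of all genes): MCL1 by 1.25 ± 0.14 and BBC3 by 2.94 ± 0.24 upward, and BCL2 by -1.94 ± 0.22, BCL2L1 by -1.24 ± 0.20 and BID by -0.95 ± 0.17 downward (adjusted p = 5e-08, 2.9e-10, 7.5e-08, 1.5e-05 and 5.3e-05). Other members passed the threshold when 1 library was left out: between 6 and 2 h BBC3 without dCBP-30 replicate 2 of 2 h (0.75, adjusted p = 0.011), BAX without dCBP-30 replicate 1 of 6 h (0.90, adjusted p = 0.036) and PMAIP1 without DMSO replicate 2 of 6 h (1.55, adjusted p = 0.04), and between 24 and 2 h PMAIP1 without dCBP-30 replicate 2 of 2 h (-1.31, adjusted p = 0.047). Without TMM factors BAX (0.90, 6 h), BAK1 and BCL2L11 (0.66 and 0.60, 24 h) also did. BCL2L1 moved up between these times in T>C reads and down in total reads.

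**Figure D5:**
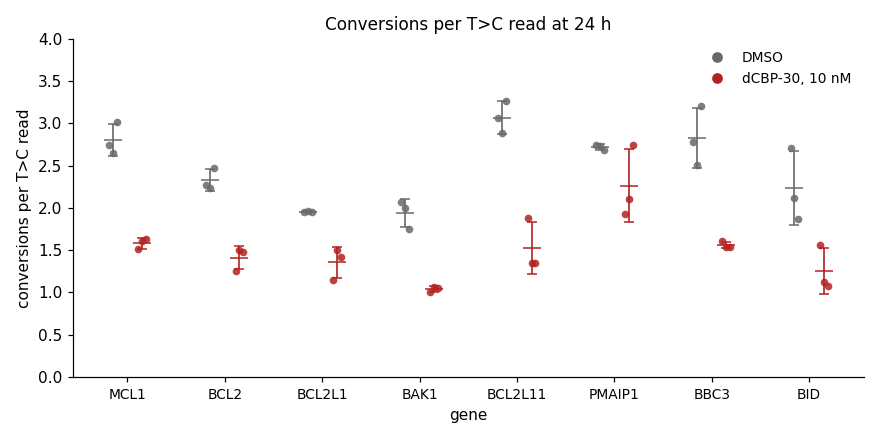
Conversions counted per T>C read at 24 h for the 8 family members with T>C reads in every library, by library, with mean and SD of 3. For each gene except PMAIP1 the dCBP-30 libraries (red, 1.00 to 1.88) lie below all of its DMSO libraries (grey, 1.75 to 3.26). Whole libraries differed in the same direction, at 1.43 to 1.51 against 2.46 to 2.51.

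The lower number of conversions per T>C read at 24 h is found in the same dCBP-30 libraries as every T>C and labelled share value under dCBP-30 at that time. It was seen over whole libraries, at 1.43 to 1.51 under dCBP-30 and 2.46 to 2.51 under DMSO. The treatments did not overlap in this number for MCL1, BCL2, BCL2L1, BAK1, BCL2L11, BBC3 and BID, and overlapped for PMAIP1 and BAX. Overlap was not counted over all genes. For BAK1 the conversions per T>C read were 1.00 to 1.07 under dCBP-30, against 1.75 to 2.07 under DMSO. The value in T>C reads of BAK1 without 4sU was 1. The part of the lower number in the 24 h differences was not tested.

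The genes whose T>C pattern over the 18 labelled libraries was most like that of a member were picked by Pearson's r of log2(RPM + 0.5) among 7559 genes averaging 20 or more T>C reads. The closest were GPRIN3 and TNFAIP3 for BCL2L1 (r = 0.985 for both), BTG1 and TPM4 for MCL1 (0.978 and 0.970), and RCC2 and NAA50 for BCL2 (0.966 for both). BCL2L11 lay closest to CABLES1 and CDYL (0.957 for both), BBC3 to STAT6 and RBMS1 (0.950 and 0.924), BAK1 to ERGIC1 and MALT1 (0.895 and 0.884), and BID to ZNF511 and MAN1C1 (0.882 and 0.851). PMAIP1 and BAX reached 0.788 with TMEM115 and 0.812 with ANKLE2. Libraries of 1 group share treatment and time, and the best of so many candidates is high by selection, so these values are descriptions.

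Other BCL2 family genes were followed from a list of 12, of which 6 were tested in T>C reads and 8 in total reads. In T>C reads 1, 0 and 1 were called lower and 1, 1 and 0 higher at 2, 6 and 24 h, beside 7.14%, 17.1% and 31.2% of all genes lower and 1.66%, 2.36% and 2.17% higher. Their medians were 0.38, 0.19 and 0.07, and those of all genes 0.05, -0.27 and -0.69. BMF, a BH3-only gene, was lower at 2 h in T>C reads (-2.42, adjusted p = 0.00091) and higher at 24 h in total reads (1.99, adjusted p = 1.4e-08). BCL2L2, which encodes the survival protein BCL-w, was higher in T>C reads at 2 h (2.78, adjusted p = 0.0081, 59 T>C reads over 3 libraries against 8) and in total reads at 6 and 24 h (1.43 and 1.14, adjusted p = 0.00016 and 0.00085). Its T>C difference at 6 h was not called (0.79, adjusted p = 0.42). Its T>C reads averaged 1.39, 1.78 and 1.90 RPM under dCBP-30 at 2, 6 and 24 h. Under DMSO they averaged 0.192, 1.02 and 2.30 RPM, so the 2 h call rests on a low DMSO value. BNIP3L, a mitophagy receptor, was higher at 6 h in T>C reads (1.37, adjusted p = 0.0043) and at 24 h in total reads (1.48, adjusted p = 3.4e-08). HRK was called lower in total reads at 24 h (adjusted p = 0.019) on 3 reads over the 3 dCBP-30 libraries against 40 under DMSO, too few for a fold.

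The caspase cascade, which acts downstream of the family, was followed over 21 genes, all tested. In T>C reads 6, 7 and 7 were called lower at the 3 times, where 7.14%, 17.1% and 31.2% of all genes were, so that the 24 h count is near the background. There were 1, 1 and 1 higher (1.66%, 2.36% and 2.17% of all genes). In total reads 3, 5 and 6 were lower (1.25%, 8.67% and 16.1%) and 0, 1 and 2 higher (0.464%, 7.47% and 15%). The medians in T>C reads were -0.29, -0.57 and -0.62, beside 0.05, -0.27 and -0.69 over all genes. BIRC3, a ubiquitin ligase that restrains caspase-8 activation, was lower in T>C reads at each time (-4.97, -3.71 and -1.71, adjusted p = 1.6e-08, 1.2e-06 and 0.0053), on 8, 15 and 71 T>C reads against 252, 174 and 192. APAF1, the scaffold of the apoptosome, was called higher in T>C reads at 6 and 24 h (adjusted p = 0.00042 and 0.028). It had 106 T>C reads over the 3 dCBP-30 libraries at 6 h against 3 under DMSO, too few for a fold, and 74 against 11 at 24 h (2.47). CASP9, its partner caspase, was higher at 2 h (2.62, adjusted p = 0.019, 95 T>C reads against 14). The 6 h difference of CASP9 was not called (0.78, adjusted p = 0.5). CASP9 T>C reads averaged 2.14, 1.56 and 0.993 RPM under dCBP-30 at 2, 6 and 24 h. Under DMSO they averaged 0.341, 0.90 and 1.09 RPM. HTRA2, a mitochondrial protease, was lower at each time (-1.12, -2.03 and -2.54, adjusted p = 0.033, 1.1e-05 and 7.6e-08).

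Of 6 genes that control MCL1 protein turnover, none was called at 2 or 6 h in T>C or total reads. At 24 h USP13, a deubiquitinase, was lower in both (-2.32 and -1.11, adjusted p = 5.6e-11 and 3.6e-09), where 31.2% and 16.1% of all genes were, and BTRC, a substrate receptor, was higher in total reads (1.16, adjusted p = 7.9e-05), where 15% were. Of 9 transcription factor genes 3, 4 and 5 were lower in T>C reads, beside 7.14%, 17.1% and 31.2% of all genes, and 0, 1 and 1 higher, beside 1.66%, 2.36% and 2.17%. Their medians were -0.37, -1.14 and -1.24. MYC, IRF4 and FOXO3 were lower at 2 h (-6.29, -3.50 and -2.71, adjusted p = 4.7e-07, 7.9e-24 and 5.9e-24). They were lower at 6 h as well (-6.55, -4.32 and -2.75, adjusted p = 1.6e-07, 7.6e-28 and 8e-25). E2F1 was lower at 24 h (-4.04, adjusted p = 1.4e-14). FOXO3 is known as an activator of BCL2L11 and BBC3 transcription. At 24 h, when BBC3 was higher, FOXO3 T>C reads averaged 88.5 RPM under dCBP-30 against 333 RPM under DMSO. A link between FOXO3 and these members was not tested.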

How the data were processed

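The 20 SLAM-seq libraries were made from MM1.S cells with a QuantSeq 3′ kit. The authors' methods name TrimGalore for trimming and the Slamdunk workflow, at its default settings and with 3′ UTRs from hg38 as targets, for mapping. Those methods say that reads of low quality or mapping to several places were dropped and that counts were collapsed to transcripts, but the deposited tables still list multimapping reads, which for BAK1 are many. Per the file headers, the deposited columns are raw counts of reads, T>C reads, conversions, covered T positions and multimapping reads, without normalization or pooling.

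Identifiers of 97466 transcripts were looked up in GENCODE release 44 (GRCh38), and 91.4% were found, the others holding 0.0789% to 0.199% of a library's reads, and 99.9% had the annotated 3′ UTR length without the stop codon. The members, lists and tests were chosen with earlier results of these data known. All members are named. From each other list at most 4 called genes with the largest log2 differences are named.

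R 4.3.3 with edgeR 4.0.16 (glmQLFit and glmQLFTest, robust) was fitted to the counts of all 18 libraries with 4sU, with a mean for each group, filterByExpr (minimum count 10) and Benjamini-Hochberg adjustment over 10086 genes for T>C reads and 12272 for total reads. Library sizes were total reads times TMM factors in both. The labelled share was fitted to paired columns of T>C and other reads with 1 term per library and 1 T>C term per group, and its log2 ratio is a ratio of odds. The libraries without 4sU entered no test and were scaled without a TMM factor. Numbered replicates did not deviate together (r between same-numbered libraries of -0.105 to 0.030), so no pairing was used. No library duplicated another of its group. The fits of T>C reads and labelled share were also run on simulated counts with known changes at 2 h alone and the same dispersion for all genes. Differences in TMM factors or in conversions per T>C read between treatments were not simulated, so that run does not bear on them. Alternatives used DESeq2 1.42.0, limma 3.58.1, other scalings, filters, transcript sums, a block for replicate number, and omission of single libraries. Python 3.11.15 was used for the joins and exact binomial intervals. The authors' methods describe an external spike-in of RNA from 4sU-treated Drosophila cells. No spike-in was used for scaling here.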

Additional observations from a re-analysis of the deposited data

Results flagged for a closer look

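The dCBP-30 effect on 5 members differed between time points by the test of that difference (edgeR, adjusted p under 0.05 over all genes), where both later times were set against the same 2 h libraries. In T>C reads 1 of 9 members differed at 6 h and 4 at 24 h, beside 8.03% and 26% of all genes. In total reads 3 and 5 did, beside 15.7% and 41.1%. For BCL2 the T>C effect was lower than at 2 h by -1.86 at 6 h and -2.21 at 24 h on the log2 scale, and the effect on total reads by -2.13 and -1.94. BCL2L1 differed in opposite directions in the 2 kinds of reads. Its T>C effect at 24 h was 1.09 above that at 2 h, while its effect on total reads was -3.10 at 6 h and -1.24 at 24 h relative to 2 h. The T>C difference missed the threshold without dCBP-30 replicate 3 of 2 h (0.88, adjusted p = 0.061) or of 24 h (0.86, adjusted p = 0.051). MCL1 was higher relative to its 2 h effect at 24 h, by 0.91 in T>C reads and 1.25 in total reads. BBC3 was 3.11 above its 2 h effect in T>C reads and 2.94 in total reads at 24 h. For BID the effect on total reads was lower by -0.56 at 6 h and -0.95 at 24 h. The 6 h difference missed the threshold without dCBP-30 replicate 1 or 3 of 2 h or DMSO replicate 3 of 6 h (adjusted p = 0.055, 0.065 and 0.067) and without TMM factors (-0.34, adjusted p = 0.15). At 24 h the conversions per T>C read were 1.43 to 1.51 over whole dCBP-30 libraries against 2.46 to 2.51 under DMSO, and their part in the 24 h T>C differences was not tested.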

How the results depend on the processing

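Of 1552 log2 differences recomputed for single members under the alternatives, 1438 kept their direction and their side of the threshold, 34 lost a call, 21 gained it and 59 changed sign. Scaling libraries by their T>C reads left 2 in place of 4 members lower in T>C reads at 24 h and turned MCL1 to 0.12 and BAX to 0.089 there. The differences from 2 h turned to 0.29 for MCL1 at 6 h and 0.29 for BAX at 24 h. Without TMM factors the number lower at 24 h was again 2, and the T>C differences turned to 0.10 (BID, 2 h), 0.0070 (MCL1, 24 h), 0.19 (MCL1, 6 h less 2 h) and 0.042 (BAX, 24 h less 2 h). In total reads they turned to 0.093 (BID, 2 h), 0.15 (BBC3, 6 h), 0.28, 0.21 and 0.41 (BAX, BAK1 and BCL2L11, 24 h) and 0.064 (MCL1, 6 h less 2 h). With reads summed over transcripts the T>C differences turned to 0.10 (BID, 2 h), 0.0018 and 0.16 (MCL1 and BAX, 6 h less 2 h) and -0.0185 (BAK1, 24 h less 2 h), and the BAX share at 2 h to -0.48. limma gave -0.14 for that share. With time points fitted alone BID T>C reads at 2 h turned to 0.0006, and 1 in place of 2 members had a lower share at 6 h. The cause was not tested.

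Leaving out 1 library at a time gave, in T>C reads at 2 h, -0.54 to 0.20 for BAX, -0.23 to 0.36 for BID and -0.33 to 0.54 for PMAIP1. For the T>C difference of 6 h less 2 h it gave -0.097 to 0.028 for MCL1, -0.15 to 0.33 for BCL2L1 and -0.029 to 0.59 for BBC3. For 24 h less 2 h it gave -1.49 to 0.13 for BAX, -0.44 to 0.33 for BAK1 and -0.14 to 0.39 for BCL2L11. In total reads it gave -0.074 to 0.0725 for BID at 2 h, -0.17 to 0.15 for BAK1 (6 h less 2 h) and -0.18 to 0.17 for BAX (24 h less 2 h). In the labelled share it gave -0.38 to 0.45 for BAX and -0.21 to 0.35 for BID at 2 h, and -1.04 to 0.36 for PMAIP1 at 24 h. The number of members lower in T>C reads ranged from 3 to 6 at 2 h, 4 to 6 at 6 h and 3 to 6 at 24 h, in place of 4, 5 and 4, and the number whose T>C difference at 24 h departed from 2 h from 3 to 5. In total reads the number lower at 24 h ranged from 2 to 3, and the number departing from 2 h from 2 to 4 at 6 h and 5 to 6 at 24 h. The number of members higher in T>C reads at 6 h ranged from 0 to 1, lower in total reads at 2 h from 0 to 1, and lower in labelled share from 0 to 2 at 6 h and from 2 to 4 at 24 h.

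The replicate block, fitted although same-numbered libraries did not deviate together, changed none of 117 member values' calls or directions: MCL1 in T>C reads was -1.42, -1.44 and -0.52 at 2, 6 and 24 h with the block. Depth limits BAX, PMAIP1 and BIK most, with 0 to 13 T>C reads per library for BAX, and a call lost when a library is left out can follow from the smaller number of libraries.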
